A study of Macaca mulatta with 28 samples.

Results

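Corticotropin-releasing factor (CRF) and corticosteroid genes were examined in bulk tissue of the VTA (ventral tegmental area), where mesolimbic dopamine neurons have their cell bodies. The set was the 10 entries of the deposited table of 16885 named genes whose symbols are CRH, CRHR1, CRHR2, CRHBP, UCN, NR3C1, NR3C2, FKBP5, HSD11B1 and TSC22D3, and all 10 were found. RNA had been sequenced from tissue punches of 28 male rhesus macaques aged 7 to 8.3 years, with 1 library per animal. The 17 drinkers had learned to drink alcohol through schedule-induced polydipsia, had then had 12 months of voluntary access for 22 hours a day, and had gone through abstinence and renewed access in alternation, with 3 months of access each time. The 11 controls were calorically yoked or housed alongside without alcohol, and the labels do not say which control was of which kind. All tissue was taken after 30 days of abstinence in the drinkers, so no animal was drinking at the time. The labels placed 1 drinker in the Low category of intake, 2 in Binge, 5 in Heavy and 9 in Very Heavy. The animals came in 2 cohorts, the first with 8 of the drinkers and 8 of the controls, the second with the other 9 and 3. Animals are named below by their category and a number, such as Control 3 or Very Heavy 5. All were males of 1 species studied at 1 time point, and no animal gave tissue before drinking.

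CRF, encoded by CRH, starts the hormonal response to stress from the hypothalamus and also acts as a transmitter in other brain regions, including inputs to the VTA. It and the related peptide urocortin, encoded by UCN, act on the receptors CRHR1 and CRHR2, while the secreted protein encoded by CRHBP binds both peptides and limits how much reaches the receptors. The adrenal steroid that this axis releases (cortisol in primates) enters cells and binds the mineralocorticoid receptor (NR3C2) and the glucocorticoid receptor (NR3C1), which then switch genes on at DNA sites named glucocorticoid response elements. FKBP5, a chaperone that holds the glucocorticoid receptor in a state of low affinity, and TSC22D3, also named GILZ, are among the genes the receptor induces, and HSD11B1 regenerates active steroid inside cells.

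The full response element, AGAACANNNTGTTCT with N for any base, was searched for on both strands in the gene bodies of the members, to show where receptor and target genes hold the sequence that this pathway reads. It lay in 1.46% of the 15986 coding genes of the table that could be placed on the macaque genome build Mmul_10 (RefSeq annotation). Among the members it lay once in FKBP5 and once in NR3C1, and in none of the other 8. The share of genes takes no account of length, which was 119489 bases for FKBP5 and 456407 for NR3C1. Per megabase these came to 8.37 and 2.19 matches, each from a single site, against 0.216 over the coding genes. Both sites were intronic, and 1 copy each stood 90194 bases from the start of FKBP5 (chr4:133793958-133913446, forward strand) and 78591 bases from the start of NR3C1 (chr6:140690312-141146718, reverse strand). They are printed in the direction of the gene, with the element in capitals, for chr4:133884142-133884176 and chr6:141068103-141068137.
FKBP5 intron: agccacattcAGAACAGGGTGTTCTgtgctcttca
NR3C1 intron: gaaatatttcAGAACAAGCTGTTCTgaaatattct
A match is a stretch of letters only, and occupancy by the receptor was not measured.

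UCN, a gene of less than 1 kb (chr13:81643721-81644580, forward strand), is the shortest member, and the 250 bases before its start are shown because among the members only this stretch held a cyclic AMP response element (TGACGTCA, found upstream of 1.66% of coding genes) or one arm of the steroid response element (AGAACA or its complement TGTTCT, found upstream of 9.87%), and it held both. Both strands were searched, and both motifs are in capitals.
UCN upstream (chr13:81643471-81643720): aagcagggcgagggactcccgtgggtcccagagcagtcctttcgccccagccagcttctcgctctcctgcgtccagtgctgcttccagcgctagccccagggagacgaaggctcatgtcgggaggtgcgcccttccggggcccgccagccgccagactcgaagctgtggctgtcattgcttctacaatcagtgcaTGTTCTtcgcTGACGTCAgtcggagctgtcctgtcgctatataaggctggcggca

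Levels are given as CPM, read counts expressed per TMM-scaled library total, for libraries that held 12303914 to 27338669 counts each. Each symbol stands for 1 Ensembl transcript, so a value of 0 says only that this transcript was listed at 0. SLC1A2, the main astrocyte glutamate transporter, was listed at 0 in all 28 animals, for example, and AQP4, the astrocyte water channel, in 18. TH and SLC6A3, the synthetic enzyme and the transporter that mark dopamine neurons, were above 0 in every animal, and TH ranged from 5.58 CPM in Heavy 3 to 826 CPM in Control 5. Library makeup moved with the groups: 10554 to 11898 transcripts had a count above 0 in the drinkers of cohort 1, against 11718 to 12550 in its controls, 11940 to 12676 in the drinkers of cohort 2 and 12380 to 12696 in its controls. The share of counts from mitochondrial transcripts lay between 36.4% and 60.6% and overlapped between all groups.

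TSC22D3, FKBP5, HSD11B1, UCN, NR3C1 and CRHBP were listed higher per unit of length than the other 4 members. Per kilobase of the shortest and the longest RefSeq transcript, mean CPM over all 28 animals, those at 0 included, was 23.2 and 18.2 for TSC22D3, 16.9 for FKBP5, 14.6 and 10.4 for HSD11B1, 13.5 for UCN, 11.2 and 5.75 for NR3C1, and 6.45 for CRHBP, which has a single length. On the same scale CRHR2 came to 0.868 and 0.709, CRH to 0.236, CRHR1 to 0.0932 and 0.0252, and NR3C2 to 0.0258 and 0.0190. The order of the first 6 depends on which transcript length is used and their animals overlap, so neighbours in it are not told apart, whereas CRHR2, CRH, CRHR1 and NR3C2 formed a lower group on every length.

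The set fell into steady and variable transcripts. FKBP5 ranged from 51.1 CPM (Control 7) to 104 CPM (Control 1), a 2.03-fold range, and TSC22D3 from 28.2 CPM (Control 6) to 60.2 CPM (Control 7), a 2.13-fold range. Of the 10446 transcripts with a mean of at least 1 CPM, 32.5% varied less than FKBP5 over the animals and 24.2% less than TSC22D3, by the SD of log2 CPM. NR3C1 spanned 9.44-fold, HSD11B1 8.81-fold, CRHBP 11.1-fold and CRHR2 39.4-fold, and between 67.0% (NR3C1) and 78.9% (CRHR2) of transcripts varied less. CRH, CRHR1, UCN and NR3C2 were listed at 0 in some animals and have no such range.

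**Figure D1:**
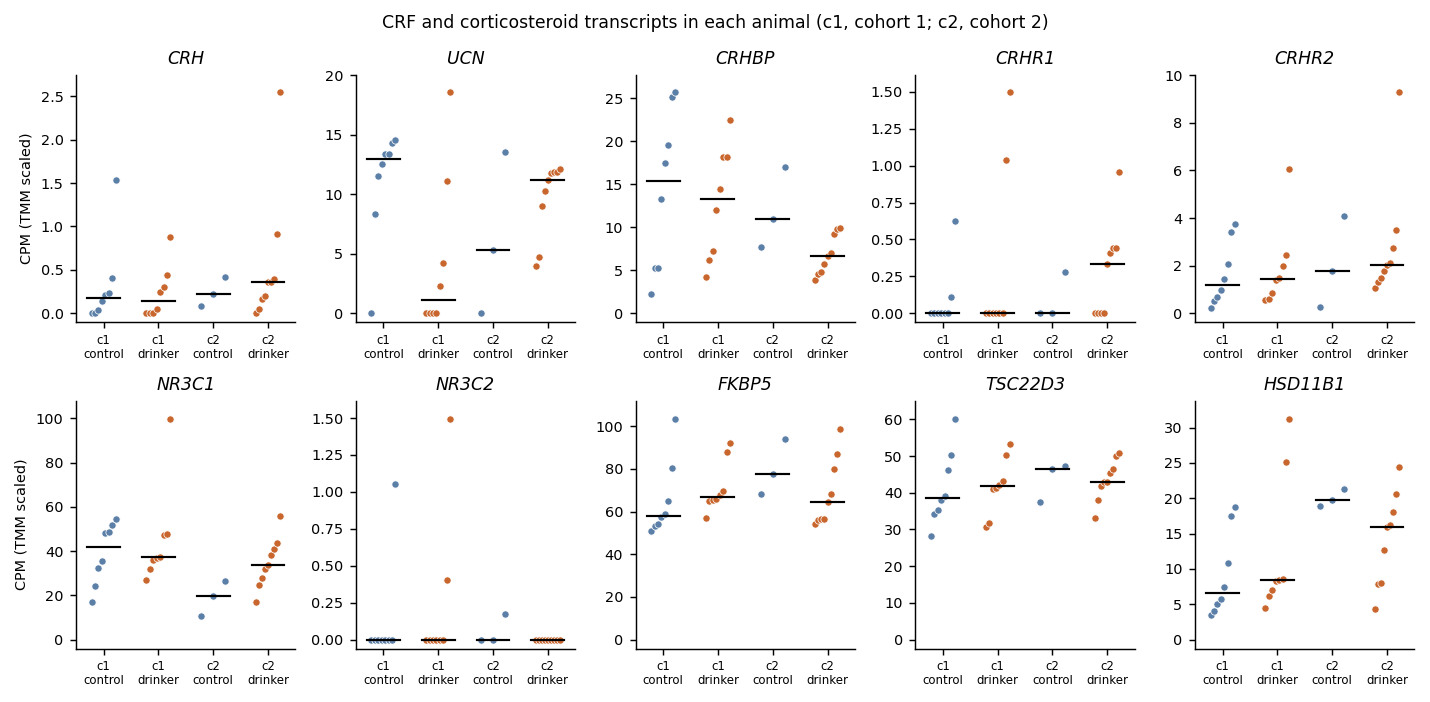
Level of each of the 10 transcripts (vertical axes, TMM-scaled CPM, linear from 0) in each of the 28 animals, split by cohort (c1, c2) and into controls (blue) and drinkers (orange), with a bar at the median. Drinkers and controls overlap in every panel, UCN has points at 0 apart from the rest, and CRHR1 and NR3C2 lie at 0 in most animals.

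Whether drinking left a mark on this system was asked first over all 28 animals. No member passed an adjusted p of 0.05 in edgeR's quasi-likelihood test, for which the share of all 13769 transcripts called was also 0%, and no member had an unadjusted p under 0.05, against 4.57% of all transcripts (629). DESeq2 called 11 transcripts and limma-voom 0 at the same threshold, and no member for which a fold change is read passed in either. Over the 8 members above 0 in most animals the median log2 fold change was 0.08, against 0.00 over all transcripts, with 6 above 0 and 2 below. In no member did the drinkers and the controls stay apart, and over all transcripts the share with no overlap between the arms was 0%.

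The ligands and their binding protein came first. UCN had 43 to 458 counts in 22 animals and was listed at 0 in the other 6, which were Control 1, Control 10, Heavy 2, Heavy 3, Very Heavy 1 and Very Heavy 3. Over drinkers its lowest, median and highest level was 0, 9.01 and 18.6 CPM, and over controls 0, 12.6 and 14.6 CPM. The 0s fell in 4 of 8 drinkers and 1 of 8 controls of cohort 1, and in 0 of 9 drinkers and 1 of 3 controls of cohort 2, so both arms held values at 0 and values near the top.

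UCN therefore fell into 2 clusters with nothing between 0 and 43 counts, and no group mean with SD and no correlation is read for it. UCN overlaps TRIM54 on the other strand, and TRIM54 had at most 12 counts in any library. Whether counting used the strand is not given in the sources used here, so reads of the pair cannot be told apart. In the edgeR fit the drinkers' log2 fold change for UCN was -0.43 with an SE of 0.77 and an adjusted p of 1.00, and its 95% interval ran from -1.99 to 1.14.

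CRH was close to the limit of detection, with a median of 4.5 counts per library and 6 animals at 0. Drinkers lay between 0 and 2.55 CPM with a median of 0.243, and controls between 0 and 1.53 with a median of 0.216. Very Heavy 5 was the highest drinker with 46 counts and Control 3 the highest control with 39, while the remaining animals had at most 23 and the arms overlapped. The log2 fold change was 0.42 with an SE of 0.85, and leaving out Very Heavy 5 turned it to -0.14. Its 95% interval ran from -1.33 to 2.17.

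CRHBP, the binding protein, was measured in every animal with 33 to 643 counts. In drinkers its lowest, median and highest level was 3.93, 7.23 and 22.5 CPM, and in controls 2.31, 13.3 and 25.7 CPM. Control 5 and Control 3 lay above all drinkers and Control 2 below all of them, so the arms overlapped over most of their range. The fitted log2 fold change was -0.49 with an SE of 0.32, an unadjusted p of 0.137 and an adjusted p of 1.00 in edgeR's quasi-likelihood test.

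The receptors of the CRF family were sparse. CRHR2 had 5 to 204 counts, with 0.571 to 9.29 CPM in drinkers (median 1.77) and 0.236 to 4.07 CPM in controls (median 1.43). Binge 2 and Heavy 4 were the highest animals, and 3 controls lay below all drinkers. Its log2 fold change was 0.45 with a 95% interval from -0.49 to 1.40. CRHR1 was listed at 0 in 10 of 17 drinkers and 8 of 11 controls. The counts above 0 were 33 in Heavy 3, 20 in Very Heavy 2, 24 in Very Heavy 9, 8 or 9 in Very Heavy 4, 5, 6 and 8, and 16, 6 and 3 in Control 3, Control 9 and Control 6. Of the 7 drinkers with counts, 6 were Very Heavy, and no count was seen in the Low or Binge animals.

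NR3C1, the glucocorticoid receptor, was above 0 in every animal. It had 243 to 1879 counts, with 16.9, 37.1 and 99.95 CPM as the lowest, median and highest drinker and 10.6, 32.6 and 54.5 CPM in controls. Low 1 stood far above the rest, Very Heavy 7 was next, and Control 10 was the lowest of all, with the arms overlapping between. The log2 fold change was 0.25 with an SE of 0.24 and an adjusted p of 1.00. Since NR3C1 was lower in cohort 2, which held 9 of the drinkers and 3 of the controls, the fit with cohort as a covariate is given too, and there it was 0.44 (unadjusted p = 0.0614, adjusted p = 0.755 in edgeR's quasi-likelihood test). NR3C2 was listed at 0 in 24 animals, and the 4 others were Control 7 with 25 counts, Very Heavy 1 with 24, Heavy 2 with 10 and Control 10 with 4. No fold change is read for a transcript at 0 in most animals, which applies to NR3C2 and CRHR1.

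The genes that the receptor induces gave the tightest estimates. FKBP5 lay between 54.2 and 98.4 CPM in drinkers (median 65.9) and between 51.1 and 104 CPM in controls (median 64.96). TSC22D3 lay between 30.8 and 53.2 CPM in drinkers (median 42.8) and between 28.2 and 60.2 CPM in controls (median 39.1). For both, the highest and the lowest animal of all were controls, and the drinkers lay within their range. The drinkers' fold was 1.01 for FKBP5, with a 95% interval from 0.859 to 1.19, and 1.01 for TSC22D3, with an interval from 0.880 to 1.17. HSD11B1 was less certain, at 13.4 ± 8.13 CPM in drinkers (SD, n = 17) and 12.1 ± 7.17 CPM in controls (SD, n = 11), and its fold of 1.11 had an interval from 0.687 to 1.79.

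**Figure D2:**
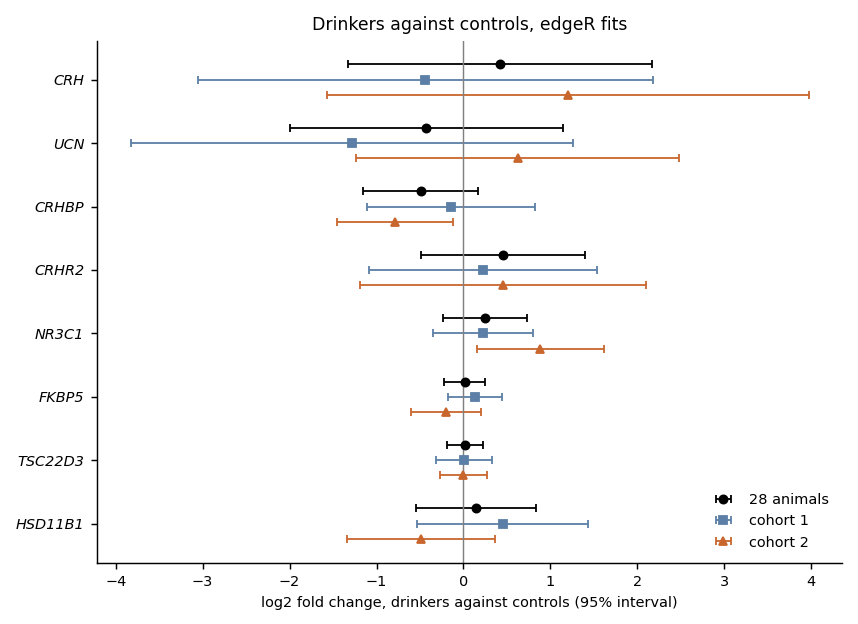
Log2 fold change of drinkers against controls (horizontal axis) with its 95% interval from edgeR for the 8 members above 0 in most animals, over 28 animals (black), cohort 1 (blue) and cohort 2 (orange). The intervals of FKBP5 and TSC22D3 are the narrowest and lie around 0, and only the cohort 2 intervals of NR3C1 and CRHBP stay on 1 side of 0.

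Within each cohort no member passed the adjusted threshold. In cohort 1 edgeR called 5 transcripts (0.0364%) and no member, and no member had an unadjusted p under 0.05 against 11.6% of all transcripts. In cohort 2 it called 0 transcripts (0%), with 546 at an unadjusted p under 0.05 (3.98%), and DESeq2 called 23 and limma-voom 3. NR3C1 and CRHBP were the members under an unadjusted 0.05 there, the first higher in drinkers, against 2.08% of transcripts, and the second lower, against 1.9%.

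NR3C1 in cohort 2 was 10.6, 19.6 and 26.7 CPM in Control 10, Control 11 and Control 9, and 16.9 to 55.7 CPM in the 9 drinkers with a median of 33.7. Of these drinkers, 7 lay above all 3 controls, and Binge 2 lay below 2 of them, so the arms overlapped. The log2 fold change was 0.88 with an SE of 0.34, an unadjusted p of 0.0216 and an adjusted p of 1.00 in edgeR's quasi-likelihood test. Without Control 10 it was 0.59 with an unadjusted p of 0.118. In cohort 1 the log2 fold change was 0.22 with an SE of 0.27, and without Low 1 it was -0.04. Drinkers there ranged from 27.2 to 99.95 CPM and controls from 17.2 to 54.5 CPM. Low 1 was the library with the fewest detected transcripts of all, at 10554.

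CRHBP in cohort 2 was 7.72, 11.0 and 17.0 CPM in Control 11, Control 9 and Control 10, and 3.93 to 9.92 CPM in the drinkers with a median of 6.65. Of these drinkers 6 lay below all controls, and none reached the upper 2 controls. The log2 fold change was -0.79 with an SE of 0.31, an unadjusted p of 0.0244 and an adjusted p of 1.00 in edgeR's quasi-likelihood test. Without Control 10 it was -0.45 with an unadjusted p of 0.230. In cohort 1, with drinkers at 4.26 to 22.5 CPM and controls at 2.31 to 25.7 CPM, it was -0.14 with an SE of 0.46.

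Whether the drinking effect differed between cohorts was tested by an interaction term. It called 2 transcripts (0.0145%), neither a member, and 9.64% of transcripts but no member had an unadjusted p under 0.05. The difference of log2 fold changes, cohort 2 minus cohort 1, was 0.66 for NR3C1 (SE 0.46, unadjusted p = 0.164 in edgeR's quasi-likelihood test), -0.65 for CRHBP (SE 0.65) and -0.34 for FKBP5 (SE 0.25). In the other settings of the fit FKBP5 was at 0.13 to 0.18 in cohort 1 and -0.22 to -0.18 in cohort 2. For FKBP5 in cohort 2, 5 drinkers lay below all controls and 1 above them. Among the 8 members above 0 in most animals the ligands had the widest differences. UCN was fitted at a log2 fold change of -1.28 in cohort 1 and 0.62 in cohort 2, and the SE of their difference was 1.78 (unadjusted p = 0.296 in the same edgeR test), while the difference for CRH was 1.62 (SE 1.92). The UCN values rest on single animals and on the fit. In cohort 1 it was -2.13 without Heavy 1 and -4.29 with limma-voom, and in cohort 2 it was 0.0325 without Control 10, 1.84 without Control 9 and 3.01 with limma-voom. For HSD11B1 the difference was -0.94 (SE 0.68), since its fitted log2 fold change was 0.45 in cohort 1 and -0.49 in cohort 2 (unadjusted p = 0.345 and 0.238 in the same edgeR test). The first was 0.092 without Heavy 3, 0.23 without Heavy 1 and 0.69 without Control 1. In cohort 2 HSD11B1 was 18.9 to 21.3 CPM in the 3 controls and 4.32 to 24.5 CPM in the 9 drinkers, of which 7 lay below all controls and 1 above them.

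The balance of a target to its receptor can be read within a library, where scaling does not enter. The mean log2 ratio of FKBP5 to NR3C1 was 0.89 ± 0.68 in drinkers (SD, n = 17) and 1.17 ± 0.88 in controls (SD, n = 11), a difference of -0.27 with p = 0.368 in a two-sided permutation test. In cohort 1 the difference was -0.05 with p = 0.881 over all 12870 splits in an exact permutation test. In cohort 2 drinkers were at 1.03 ± 0.76 (SD, n = 9) and controls at 2.15 ± 0.61 (SD, n = 3), a difference of -1.13 with p = 0.050 in an exact permutation test over 220 splits. Adjusted over the 3 tests, which share animals, the last came to p = 0.150 (exact permutation test).

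The cohorts were also compared with drinking held in the model, and no member passed the adjusted threshold. Of all transcripts 6 were called (0.0436%), and 9.81% had an unadjusted p under 0.05, as did NR3C1 and CRHBP, both lower in cohort 2, against 4.27% of transcripts in that direction. NR3C1 was 42.4 ± 18.6 CPM in cohort 1 (SD, n = 16) and 30.9 ± 12.6 CPM in cohort 2 (SD, n = 12), with a log2 fold change of -0.60, an SE of 0.23 and an adjusted p of 0.299 in edgeR's quasi-likelihood test. CRHBP was 13.6 ± 7.78 CPM and 8.13 ± 3.64 CPM, with a log2 fold change of -0.68, an SE of 0.31 and an adjusted p of 0.458. NR3C2, for which no fold change is read, was also under an unadjusted 0.05, and 3 of its 4 animals above 0 were of cohort 1. HSD11B1 went the other way, at 10.8 ± 8.14 CPM in cohort 1 and 15.7 ± 6.22 CPM in cohort 2, with an unadjusted p of 0.112 in the same edgeR test. FKBP5 (68.4 ± 15.2 and 71.7 ± 15.5 CPM) and TSC22D3 (41.6 ± 8.79 and 43.5 ± 5.33 CPM) were close in both, with 95% intervals of the fold from 0.887 to 1.24 and from 0.904 to 1.21. The relation of NR3C1 to the number of detected transcripts, which was lower in cohort 1, did not pass adjustment, at r = -0.53 and rho = -0.50 with unadjusted permutation p values of 0.0034 and 0.0073 over 28 animals. Its r was -0.41 within cohort 1, -0.56 within cohort 2 and -0.39 once the pair with the most extreme numbers was left out, and the adjusted p over 30 such relations was 0.102. No marker of astrocytes or dopamine neurons passed the adjusted threshold between the cohorts. Of 6 astrocyte markers 4 were tested, and SLC1A2 was at 0 in all animals. GJA1 and SLC1A3 were higher in cohort 2 at an unadjusted p under 0.05 in edgeR's quasi-likelihood test, against 5.54% of transcripts. AQP4 met this too, but was listed at 0 in 18 animals, and GFAP did not. The list's median log2 fold change, AQP4 included, was 0.35. Its summed level was 486 to 786 CPM in cohort 1 and 538 to 1248 CPM in cohort 2. The 12 dopamine neuron markers, of which 7 were below 0 and 1 of them at an unadjusted p under 0.05, had a median of -0.39, with a summed level of 47.9 to 1875 CPM and 44.8 to 1726 CPM. This comparison was refitted in 7 other settings, 1 of them with a score of the dopamine neuron markers, described below, as a covariate. The log2 fold change stayed between -0.62 and -0.56 for NR3C1 and between -0.70 and -0.53 for CRHBP. Beyond these fits, the part of library makeup and of these cells in the NR3C1 and CRHBP differences was not tested.

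By drinking category no member was called either. Very Heavy drinkers against controls, Heavy drinkers against controls, Very Heavy against Heavy, and Low and Binge together against Very Heavy each gave 0 called transcripts in edgeR (0%), with 4.47%, 6.77%, 6.51% and 4.36% at an unadjusted p under 0.05. Of the members only CRHR1 had an unadjusted p under 0.05 in any of them, in the last, where Low and Binge were at 0 and no fold change is read. DESeq2 called 28, 54, 56 and 90 transcripts in these 4 comparisons. Category and cohort were unevenly mixed, with 4 of 5 Heavy animals and Low 1 in cohort 1 and 6 of 9 Very Heavy animals and both Binge animals in cohort 2, and these fits carry no cohort term. With cohort as a covariate edgeR also called 0 transcripts in each.

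FKBP5 was 66.9 ± 14.3 CPM in Very Heavy drinkers (SD, n = 9), 76.5 ± 12.7 CPM in Heavy (SD, n = 5), 55.9 and 86.9 CPM in the 2 Binge animals, 64.9 CPM in Low 1 and 69.4 ± 17.5 CPM in controls. Very Heavy drinkers had a fold of 0.965 to controls with a 95% interval from 0.796 to 1.17. NR3C1 was 35.9 ± 9.25 CPM in Very Heavy (SD, n = 9), 39.5 ± 8.42 CPM in Heavy (SD, n = 5), 16.9 and 40.9 CPM in Binge and 99.95 CPM in Low 1. For FKBP5 every drinker lay within the range of the controls, and for NR3C1 every drinker but Low 1 and Very Heavy 7.

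CRHBP was 10.4 ± 6.11 CPM in Very Heavy (SD, n = 9), 9.55 ± 5.61 CPM in Heavy (SD, n = 5), 4.63 and 4.78 CPM in Binge, and 14.5 CPM in Low 1. HSD11B1 was 11.9 ± 7.11 CPM in Very Heavy and 17.9 ± 10.7 CPM in Heavy, and the fold between them was 0.666 with an interval from 0.339 to 1.31. With cohort as a covariate that fold was 0.459, with an interval from 0.237 to 0.890. Its unadjusted p was 0.0230 and its adjusted p 0.727 in edgeR's quasi-likelihood test. The share of all transcripts under an unadjusted 0.05 in that fit was not counted. Heavy 3 and Heavy 1 were at 31.3 and 25.2 CPM, and the other Heavy animals at 6.17 to 18.1 CPM. Across the 17 drinkers, with cohort in the model, edgeR called 2 transcripts for a trend over the 4 ordered categories (0.0145%), and 5.83% but no member had an unadjusted p under 0.05. The members nearest to it were CRH, with a log2 change of 1.27 per category step (SE 0.67, unadjusted p = 0.0751), and NR3C1, with -0.24 (SE 0.13, unadjusted p = 0.0754), both with an adjusted p of 0.871 in edgeR's quasi-likelihood test. The NR3C1 slope includes Low 1, the only animal of its category and the library with the fewest detected transcripts.

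**Figure D3:**
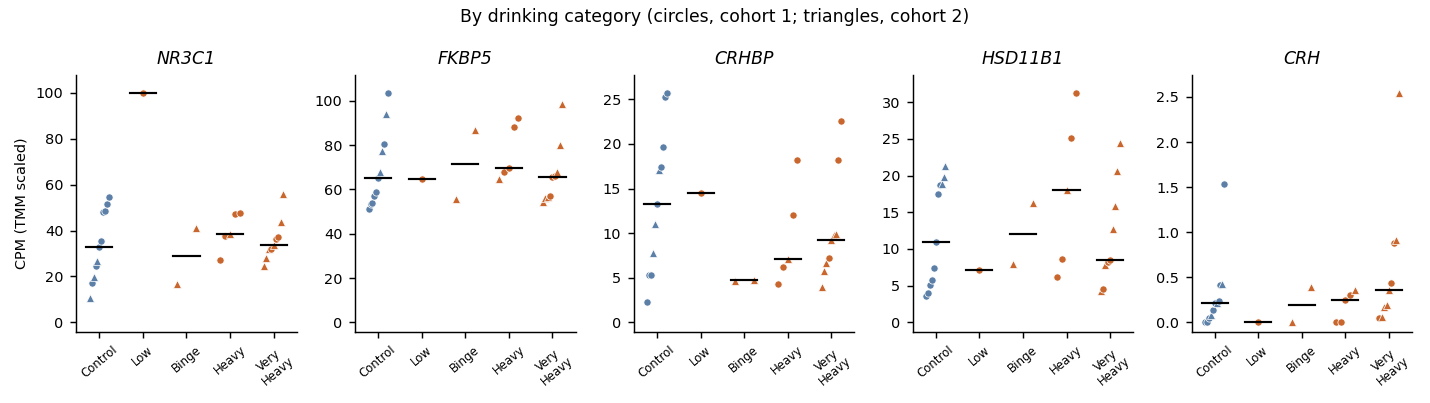
Level (vertical axes, TMM-scaled CPM, linear from 0) of NR3C1, FKBP5, CRHBP, HSD11B1 and CRH in each animal by drinking category, with a bar at the median, circles for cohort 1 and triangles for cohort 2. Low 1 is the highest animal for NR3C1 at 99.95 CPM, and Very Heavy 5 the highest for CRH at 2.55 CPM.

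CRHBP varied together with the dopamine neuron markers of the sample, of which 10 of 12 had a log2 fold change below 0 in drinkers, with a median of -0.35 over all animals and -0.69 in cohort 2, and none an unadjusted p under 0.05. A score was taken as the mean of standardised log2 CPM over 12 markers (TH, SLC6A3, SLC18A2, DDC, NR4A2, ALDH1A1, FOXA2, PITX3, EN1, LMX1B, RET and KCNJ6), none of them at 0 in all animals. Over 28 animals CRHBP correlated with it at r = 0.66 and rho = 0.67, each with an adjusted p of 0.030 by permutation. How many of all transcripts followed the score as closely was not counted. This relation of CRHBP was the only 1 of 150 between members and lists to pass. Its r was 0.73 within cohort 1, 0.59 within cohort 2, 0.49 in drinkers and 0.81 in controls, and 0.58 once the pair with the most extreme scores was left out. The score ran from -1.22 to 0.99 in drinkers and from -1.06 to 1.38 in controls, and the summed level of the markers from 44.8 to 1701 CPM and from 47.9 to 1875 CPM. Control 10, without which CRHBP in cohort 2 was no longer under an unadjusted 0.05, had the highest score of cohort 2, at 0.96, and the part of the score in that difference was not tested beyond the covariate fit. With the score as a covariate the log2 fold change of CRHBP was -0.33 over all animals (unadjusted p = 0.212) and -0.60 in cohort 2 (unadjusted p = 0.0562), both by edgeR's quasi-likelihood test. In bulk tissue fewer cells of a type and less RNA per cell cannot be told apart.

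**Figure D4:**
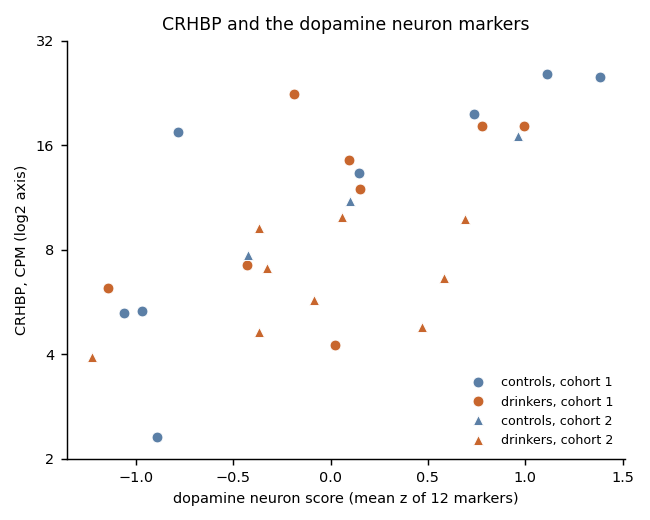
CRHBP level (vertical axis, TMM-scaled CPM on a log2 axis) against the dopamine neuron score (horizontal axis, mean z over 12 markers) in each animal, with controls in blue, drinkers in orange, circles for cohort 1 and triangles for cohort 2. CRHBP rises along the score (r = 0.66 over 28 animals), and the cohort 2 drinkers lie low in the plot, at 9.92 CPM or less.

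The transcripts most like CRHBP over the 28 animals, out of 10445 with a mean of at least 1 CPM, were PAX5 at r = 0.81, EN2 at 0.77 and AQP3 at 0.76, of which PAX5 and EN2 encode transcription factors that pattern the midbrain. Their r was 0.83, 0.79 and 0.73 in cohort 1 and 0.65, 0.65 and 0.85 in cohort 2. The other members had weaker companions. NR3C1 was most like GPR19, ESS2 and CDK17 (r = 0.62, 0.60 and 0.58), FKBP5 like STARD4, PDP2 and OXER1 (0.61, 0.60 and 0.55), TSC22D3 like KIAA1217, FMNL2 and AP1AR (0.63, 0.62 and 0.62), HSD11B1 like GRM5, PCM1 and RHOQ (0.73, 0.68 and 0.67), CRHR2 like IPO8, C1QL3 and DHX8 (0.72, 0.69 and 0.66), and CRH like CXXC4, ENC1 and TSPYL2 (0.70, 0.69 and 0.62). For members listed at 0 in part of the animals the closest were ORMDL1, COL17A1 and ALDH4A1 to CRHR1 (0.65, 0.61 and 0.60) and HTR2C, GPN1 and PGAM1 to NR3C2 (0.66, 0.65 and 0.63). NR3C2 and HTR2C were listed at 0 in 24 and 22 animals, and their r was 0.90 in cohort 1 and -0.21 in cohort 2. No closest transcripts are given for UCN, whose clusters allow no r. These are the top values of a search and carry no test.

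Members varied little with each other. Of 45 pairs none passed an adjusted p of 0.05, and 4 had an unadjusted p under 0.05 for r by permutation, 2 of them pairs with UCN, whose clusters allow no r. Among members measured in all animals, the pair with the largest r was HSD11B1 with TSC22D3 (r = 0.46, rho = 0.42, adjusted p = 0.469 and 0.331 by permutation), at 0.54 within cohort 1 and 0.15 within cohort 2. FKBP5 and HSD11B1 followed (r = 0.41, rho = 0.43, adjusted p = 0.469 and 0.331 by permutation), at 0.33 and 0.52. In controls and in drinkers r was 0.70 and 0.23 for the first pair, and 0.65 and 0.20 for the second. The difference between the arms was not tested. CRHR2 with NR3C1 had a rho of the same size with the opposite sign (r = -0.36, rho = -0.43, adjusted p = 0.536 and 0.331 by permutation). Its r was -0.27 and -0.33 within the cohorts, and -0.53 and -0.34 in controls and drinkers. FKBP5 and TSC22D3 did not track the mean of 19 further glucocorticoid-induced genes beyond permutation error, with r = 0.27 (adjusted p = 0.872) and 0.24 (adjusted p = 0.872). CRH, although sparse, had r = 0.52 with the markers of the Edinger-Westphal nucleus, a midbrain group of peptidergic neurons near the VTA, with rho = 0.31 and an adjusted p of 0.241 by permutation. Leaving out the pair of animals with the most extreme scores took r to 0.19, so the relation rests on them. CARTPT, 1 of the 5 markers in that list, was highest in Very Heavy 5, the animal with the most CRH, at 631 counts (34.9 CPM). Very Heavy 9 followed with 302 and Heavy 3 with 180, the last of which had no CRH count and no UCN count. NUCB2, GHSR and LEPR, of the same list, were listed at 0 in 16, 12 and 23 animals.

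The wider pathway was read from lists of genes. In the CRF family and pituitary-adrenal list, 5 of 10 genes passed the filter and none had an unadjusted p under 0.05 between drinkers and controls. The lowest p values were those of ADCYAP1R1, the receptor of the stress peptide PACAP (110.6 ± 27.4 CPM in controls and 100.2 ± 19.6 in drinkers, SD), and of AVP, the vasopressin gene, which was listed at 0 in 11 animals. Of 10 chaperones of the receptor all were tested and 0 passed in either direction, with a median log2 fold change of 0.06. The 2 with the lowest p were PTGES3 (log2 fold change 0.18, SE 0.12) and ST13 (0.32, SE 0.26).

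Of 8 coregulators of the receptor 7 had a log2 fold change below 0, with a median of -0.13 against 0.00 over all transcripts, and 1 had an unadjusted p under 0.05, against 2.05% of all transcripts in that direction. It was CRTC2, a coactivator of CREB, which was 61.4 ± 6.38 CPM in drinkers (SD, n = 17) and 68.4 ± 8.41 CPM in controls (SD, n = 11), with a log2 fold change of -0.16, an unadjusted p of 0.0201 and an adjusted p of 1.00 in edgeR's quasi-likelihood test. In cohort 1 it was -0.29 (SE 0.08, adjusted p = 0.199) and in cohort 2 0.07 (SE 0.09, adjusted p = 0.999) by the same edgeR test. The difference between these cohort values for CRTC2 was 0.35 (SE 0.13, unadjusted p = 0.0094, adjusted p = 0.336 in the edgeR interaction test). In cohort 1, 7 of the 8 coregulators were below 0 with a median of -0.24, and 2 had an unadjusted p under 0.05, against 6.29% of transcripts in that direction. In cohort 2 all 8 were above 0, with a median of 0.14. An interaction under an unadjusted 0.05 was seen for 2, both above 0, against 4.95% of transcripts. These counts and medians include NCOA3, NCOA2 and EP300, listed at 0 in 15, 12 and 11 animals. The share of all transcripts above 0 in each cohort was not counted. The number of detected transcripts differs along the same split of cohort 1, and its part was not tested. Over all animals the second lowest p of the list was that of NCOA1, a nuclear receptor coactivator, at 93.6 ± 8.01 CPM in drinkers and 89.9 ± 6.65 CPM in controls (SD), with an unadjusted p of 0.249 in the edgeR test.

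Of 22 other glucocorticoid-induced genes 19 were tested, 14 had a log2 fold change above 0 and 5 below, and the median was 0.05. This balance moved with cohort, as 8 were above 0 and 11 below in cohort 1 (median -0.09), 14 and 5 in cohort 2 (median 0.13), and 9 and 10 over all animals with cohort as a covariate (median -0.0084). Between cohorts 14 were above 0 in cohort 2. The counts and medians of this list include PER1 and FAM107A, listed at 0 in 15 and 19 animals. In the fit without cohort, the 2 with an unadjusted p under 0.05 were both higher in drinkers, against 2.52% of all transcripts in that direction. MT2A, a metal-binding metallothionein, ranged from 0.518 to 6.25 CPM in drinkers (median 2.71) and from 0.283 to 2.11 CPM in controls (median 1.53), with a log2 fold change of 1.12, an SE of 0.38, an unadjusted p of 0.0062 and an adjusted p of 0.607 in edgeR's quasi-likelihood test, and with cohort as a covariate it was 1.19. In cohort 1 the 8 drinkers, at 2.43 to 6.25 CPM, lay above all 8 controls, at 0.283 to 2.11 CPM, which held for 0.0726% of all transcripts.

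The cohort 1 log2 fold change of MT2A was 1.55 (SE 0.45, adjusted p = 0.208 in edgeR's quasi-likelihood test). In cohort 2 drinkers at 0.518 to 4.59 CPM and controls at 0.959 to 1.64 CPM overlapped, with a log2 fold change of 0.61 (SE 0.63). MT2A belongs to a family of near-identical metallothionein genes, among which reads can be split, and it was at 6 to 156 counts. The separation in cohort 1 lies along the same split as the number of detected transcripts, and the part of that number was not tested.

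PDK4, a kinase that shuts pyruvate out of oxidation, was 47.0 ± 16.4 CPM in drinkers (SD, n = 17) and 35.8 ± 8.83 CPM in controls (SD, n = 11), with a log2 fold change of 0.39 (SE 0.18, unadjusted p = 0.0364, adjusted p = 1.00 in edgeR's quasi-likelihood test). It was also higher in cohort 2 than in cohort 1 by 0.55 on the log2 scale (adjusted p = 0.157 in the same edgeR test), with cohort as a covariate the drinkers' log2 fold change was 0.24 (unadjusted p = 0.130 in the edgeR test), and within cohorts it was 0.21 (SE 0.20) and 0.29 (SE 0.22). In cohort 1, 3 genes of the list were higher at an unadjusted p under 0.05 (MT2A, DUSP1 and CDKN1A, against 5.35% of transcripts) and 1 was lower, KLF15, against 6.29%. KLF15, a transcription factor, was 16.3 to 21.1 CPM in cohort 1 drinkers and 20.1 to 29.0 CPM in its controls, with a log2 fold change of -0.37 (SE 0.11, adjusted p = 0.223 in the edgeR test), and 0.14 (SE 0.14) in cohort 2. The interaction for KLF15 was 0.51 (SE 0.18, adjusted p = 0.327 in the edgeR test). DUSP1, CDKN1A and KLF15 were named after their values were seen.

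**Figure D5:**
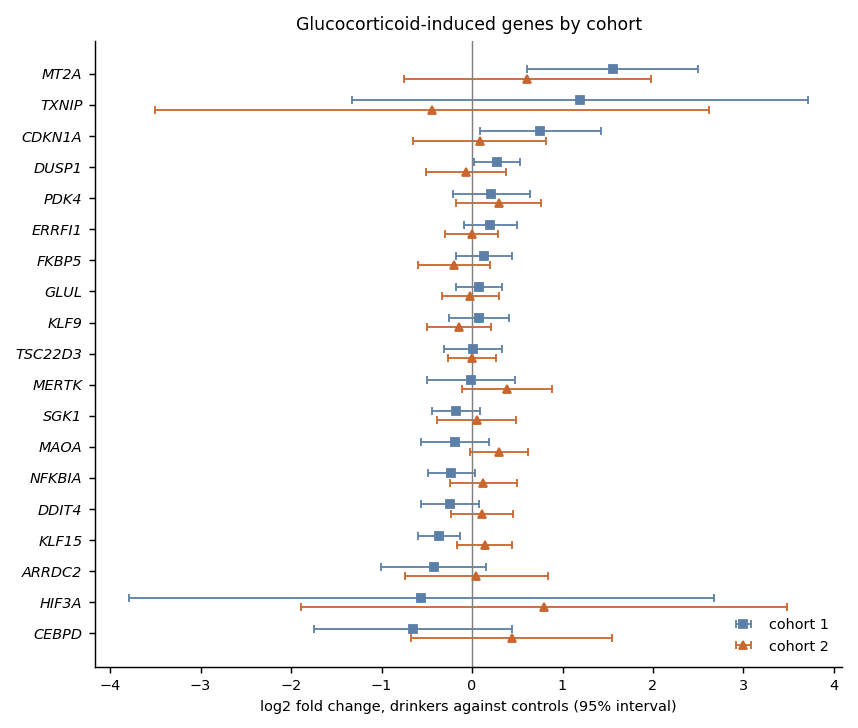
Log2 fold change of drinkers against controls (horizontal axis) with its 95% interval from edgeR for 19 glucocorticoid-induced genes, FKBP5 and TSC22D3 among them, in cohort 1 (blue) and cohort 2 (orange), sorted by the cohort 1 value. Genes at 0 in 14 or more animals are left out. MT2A is at the top with 1.55 in cohort 1. TSC22D3 lies near 0 in both cohorts, and FKBP5 a little above 0 in cohort 1 and a little below 0 in cohort 2.

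Of 11 genes of corticosteroid synthesis, activation and transport 6 were tested, 3 lay above 0 and 3 below, and none had an unadjusted p under 0.05. STAR, which carries cholesterol into mitochondria for steroid synthesis, was 4.01 ± 1.70 CPM in drinkers and 2.89 ± 1.21 CPM in controls (log2 fold change 0.47, SE 0.28). HSD11B2, the enzyme that inactivates cortisol, was listed at 0 in 13 animals, whereas HSD11B1 was above 0 in every animal.

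The marker lists of other cells in the punch were counted the same way over 28 animals. No tested gene of the GABA neuron (3 tested), glutamate neuron (2), serotonin neuron (1), oligodendrocyte (5), microglia (5), endothelial (5) or immediate early list (4) had an unadjusted p under 0.05 between drinkers and controls. One each did in the Edinger-Westphal list (5 tested), CARTPT, and the astrocyte list (4 tested), GJA1, both higher in drinkers, against 2.52% of all transcripts in that direction. GJA1, the main astrocyte gap junction gene, was 682 ± 155 CPM in drinkers and 581 ± 86.5 CPM in controls (SD), with an adjusted p of 1.00 in edgeR's quasi-likelihood test. CARTPT was 0.122 to 34.9 CPM in drinkers and 0.318 to 3.20 CPM in controls, and the arms overlapped. With cohort as a covariate the unadjusted p was 0.115 for GJA1 and 0.142 for CARTPT in the edgeR test, while AQP4 and LEPR, of the same lists and listed at 0 in 18 and 23 animals, were under 0.05 in the other direction, lower in drinkers, against 4.15% of all transcripts.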

How the data were processed

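RNA from VTA punches had been made into libraries with the Nugen Universal Plus mRNA kit, trimmed (Trim Galore 0.6.7) and quantified on Mmul_10 with Salmon 1.9.0, per the study's methods and the submitters' processing notes, which also name DESeq2 1.36.0. The deposited values are estimated counts that the authors made with Salmon, 1 Ensembl transcript per symbol, in 28 animals. They were rounded here. One entry without a symbol, with 1.16e-05% of counts, was dropped, and of 16885 named transcripts 1309 were at 0 in all animals. Testing was limited to 13769 transcripts, those reaching 5 counts in 3 or more animals, and took in all 10 members. Libraries held 12303914 to 27338669 counts, and no pair shared more than 1.76% of identical values. Categories came from the labels and cohorts from the study's source data, by animal.

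Tests used edgeR 4.0.16 (quasi-likelihood, TMM, Benjamini-Hochberg over all tested transcripts) in R 4.3.3, without covariates unless named, so p-values are over animals. Alternatives were DESeq2 1.42.0, limma-voom 3.58.1, RLE scaling, library sizes without mitochondrial transcripts, other filters, cohort or dopamine score as covariate, and leaving out each animal. Intervals are 95% intervals from the edgeR fit. Correlations and the ratio used log2 CPM (prior count 2) and up to 100000 two-sided permutations (Python 3.11.15, scipy 1.17.1). Fits were tested on simulated data. Ratios with CRHR1 or NR3C2 were planned and not computed, since both were listed at 0 in most animals.

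Members and lists were chosen with earlier results of these data known. Named were all members, the 2 lowest p values of each list between drinkers and controls, and the 3 closest transcripts by r, except for UCN, whose values fall into clusters. MT2A and other list genes may share reads with paralogs, and annotated genes overlap UCN, FKBP5, HSD11B1, NR3C1 and NR3C2. Strand use in counting is not given in the sources used here. Counts and medians over lists keep tested genes at 0 in most animals, such as PER1, FAM107A, HSP90AB1, H6PD, NCOA3 and AQP4. Sequences are from RefSeq Mmul_10.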

Additional observations from a re-analysis of the deposited data

Results flagged for a closer look

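A single animal stood far from the rest of its group for 4 members. In each case the gap to the nearest animal, as a share of the group's range, passed Dixon's 95% critical value, and chance alone gives this in about 1 in 20 groups, of which 50 were examined and 7 met it. That rate does not apply where all other animals of a group were listed at 0, as for CRHR1 in Heavy drinkers and for NR3C2, since any count then meets the criterion. NR3C1 was 99.95 CPM in Low 1, above the other drinkers of cohort 1. The library of Low 1 also had the fewest detected transcripts (10554) and the lowest mean r with the other libraries (0.920). UCN was 0.0 CPM in Control 1, below the other controls of cohort 1. CRHR1 was 1.50 CPM in Heavy 3, where the other Heavy drinkers were listed at 0, and 0.628 CPM in Control 3 among the controls of cohort 1. NR3C2 was 0.401 CPM in Heavy 2, 1.50 CPM in Very Heavy 1 and 1.05 CPM in Control 7, where the other animals of those groups were listed at 0.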

How the results depend on the processing

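The study yoked each caloric control to a drinker, but no label gives these pairs. The replicate numbers of the categories only name animals, so no paired analysis was possible and the tests leave such pairing out. In 668 other fits of the 8 members with a fold change, none reached an adjusted p of 0.05 (lowest 0.173, NR3C1 between cohorts in DESeq2), 635 kept their direction and 33 reversed. With DESeq2 the number of called transcripts was 11 for drinkers against controls, 184 in cohort 1, 23 in cohort 2, 157 for the interaction, 121 between cohorts, 28, 54, 56 and 90 for the category comparisons in the order given and 46 for the trend, against 0, 5, 0, 2, 6, 0, 0, 0, 0 and 2 with edgeR, and the cause was not tested. With limma-voom it was 2 in cohort 1, 3 in cohort 2, 23 between cohorts and 2 for Low and Binge against Very Heavy. In cohort 1 it was 3 without a filter, 2 with at least 10 counts in every animal and 2 with the dopamine score, and between cohorts 3 with RLE, 10 with at least 10 counts in every animal and 10 with the score. The trend had 0 with at least 10 counts in every animal. Leaving out 1 animal gave 1 to 4 calls in cohort 1, and 0 to 1 in cohort 2, where the 1 came without Control 11. With variance stabilized counts 2 relations of members to lists passed, CRHBP with the dopamine score and CRH with the Edinger-Westphal score (r = 0.63, adjusted p = 0.0442 by permutation).

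CRH in cohort 2 turned to -0.24 with the dopamine score as a covariate, and UCN between cohorts to -0.20 with limma-voom. Over all animals, leaving out 1 animal moved the log2 fold change from -0.14 to 1.17 for CRH, from -0.020 to 0.090 for FKBP5 and from -0.026 to 0.083 for TSC22D3. In cohort 1 the ranges were -1.12 to 0.63 for CRH, -0.30 to 0.53 for CRHR2, -0.31 to 0.028 for CRHBP, -0.044 to 0.30 for NR3C1 and -0.053 to 0.11 for TSC22D3. In cohort 2 they were -0.057 to 1.44 for CRHR2 and -0.11 to 0.056 for TSC22D3. NR3C1 in cohort 2 stayed between 0.59 and 1.21 and CRHBP between -1.03 and -0.45. Cohort 2 held only 3 controls, and CRH had a median of 4.5 counts per library.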
